A study of Mus musculus with 12 samples.

Results

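CXC chemokines are small secreted or membrane-held proteins that guide leukocytes, and 6 of their genes were followed here in mouse embryonic fibroblasts: Cxcl1, Cxcl2, Cxcl5, Cxcl10, Cxcl12 and Cxcl16. They were taken by gene name from a count matrix of 48709 genes. The fibroblasts came from wild type C57BL/6 embryos at E12.5–13.5. One arm was transfected with control siRNA (siControl). The other received siRNA to IMP2 (siIMP2), an RNA-binding protein encoded by Igf2bp2. At 24 hours after transfection the medium was exchanged, and the cells received either no stimulus or interleukin-17 (IL-17) at 200 ng/mL for 8 hours. Each of the 4 groups held 3 libraries of total RNA. Replicates 1 and 2 of every group have titles that begin with NA and replicate 3 has a title that begins with RB160, so the sets hold 8 and 4 libraries and are called the NA set and the RB160 set. The replicate numbers follow the order of deposit and only name the libraries. The labels do not say what the sets are, nor whether replicates came from separate cultures or embryos, so the p-values measure library-to-library spread that may be technical. The question that the groups pose is how IL-17 and the loss of IMP2 act on the transcripts of these fibroblasts.

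Cxcl1, Cxcl2 and Cxcl5 are ligands of the receptor Cxcr2 and draw neutrophils into inflamed tissue. Cxcl10 is an interferon-induced ligand of Cxcr3 on activated T cells, Cxcl12 is a stromal ligand of Cxcr4 and Ackr3 that holds progenitor cells and lymphocytes in place, and Cxcl16 is a membrane-bound ligand of Cxcr6 that the protease Adam10 sheds. In stromal cells IL-17 is known to raise neutrophil-attracting chemokines both through NF-kB and C/EBP factors at their promoters and through longer life of their mRNAs. Those mRNAs carry AU-rich elements, runs of the pentamer ATTTA in the 3′ UTR through which decay factors such as Zfp36 act, and Zc3h12a (Regnase-1) degrades many of the same transcripts.

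The sequences below show both kinds of element in the members, as a background to the counts. The first 3 are stretches of promoter from RefSeq (GRCm38.p6) read 5′ to 3′ on the gene's strand, and the capitals mark matches to an NF-kB-like motif, GGG and TTCC with any 3 bases between them, searched on both strands. Matches on opposite strands can overlap, as they do in Cxcl1 and Cxcl2. The Cxcl1 stretch lies at chr5:90891101-90891220 on the plus strand, that of Cxcl2 at chr5:90903747-90903866 on the plus strand, and that of Cxcl10 at chr5:92348984-92349103 on the minus strand.
Cxcl1: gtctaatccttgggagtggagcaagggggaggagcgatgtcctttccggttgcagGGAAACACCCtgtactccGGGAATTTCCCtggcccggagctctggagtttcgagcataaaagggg
Cxcl2: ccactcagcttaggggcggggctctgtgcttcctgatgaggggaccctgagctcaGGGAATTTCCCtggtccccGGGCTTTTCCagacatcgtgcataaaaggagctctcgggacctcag
Cxcl10: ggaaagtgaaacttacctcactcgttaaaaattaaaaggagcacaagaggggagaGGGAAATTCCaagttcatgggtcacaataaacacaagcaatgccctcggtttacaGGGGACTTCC
RefSeq promoters of 300 bases (250 before the start and 50 after it) were at hand for 4 members. Cxcl1 and Cxcl2 each held 3 matches and Cxcl10 held 2, while these letters were not found in the window of Cxcl12. Of all 32851 promoters in the table, 5.56% held at least 1 match. Cxcl1 and Cxcl2 both carry GGGAATTTCC, at 71 to 62 bases before the start in Cxcl1 and at 97 to 88 bases before it in Cxcl2, and 0.0883% of all promoters held that exact string. The exact string was picked because the promoters of Cxcl1 and Cxcl2 share it, so its presence in both is no test. A match describes the letters and is not a binding site.

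The next 3 sequences are windows of 25 bases from 3′ UTRs (GENCODE M21, GRCm38), each the window with the most ATTTA pentamers in its transcript, which stand in capitals. They lie at chr5:90892607-90892631 in Cxcl1 and chr5:90905328-90905352 in Cxcl2, both on the plus strand, and at chr6:117180401-117180425 on the plus strand in Cxcl12.
Cxcl1: tcctATTTATTTAtgtATTTATTTA
Cxcl2: ATTTATTTAtctatgtATTTATTTA
Cxcl12: aatccgaATTTAaataggacATTTA
The windows of Cxcl1 and Cxcl2 each held 4 pentamers in the same doubled arrangement, and that of Cxcl12 held 2. Over the whole 3′ UTR, Cxcl1 had 7 pentamers in 592 bases, or 11.8 per kb, a density above that of 99.7% of the 17822 genes with a 3′ UTR of at least 200 bases. Cxcl2 had 11 in 1494 bases (7.36 per kb, above 98.0% of genes) and Cxcl5 had 5 in 1111 bases (4.50 per kb, above 91.0%). Cxcl10 had 3.01 per kb, Cxcl16 1.41 per kb and Cxcl12 0.771 per kb, where the median gene had 1.502 per kb. The order of densities thus followed the receptor groups, with the 3 neutrophil-attracting genes at the top and Cxcl12 at the bottom.

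In the genome (mm10) 4 of the members lie on chromosome 5. Cxcl5 spans 5:90759360-90761624, Cxcl1 spans 5:90891241-90893115 and Cxcl2 spans 5:90903871-90905938, all on the plus strand within 146579 bp, in a cluster with the chemokine genes Ppbp, Pf4, Cxcl3 and Cxcl15. Cxcl10 spans 5:92346638-92348889 on the minus strand, next to Cxcl9 and Cxcl11 and 1440699 bp from the end of Cxcl2. Cxcl12 spans 6:117168535-117181367 on the plus strand and Cxcl16 spans 11:70453983-70459984 on the minus strand, with no other chemokine gene within 200 kb of either. Cxcl10 lies inside Art3 on the opposite strand, which had 0 exon counts in all libraries, and Cxcl16 overlaps the start of Zmynd15 on the opposite strand, which had 7 to 77. The use of strand in counting is not given in the sources used here, so reads of Cxcl16 and Zmynd15 in their overlap cannot be told apart.

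Libraries held 33841054 to 44433699 exon reads. Igf2bp2, the target of the siRNA, was at 14.7% of its control level in unstimulated cells and at 15.4% with IL-17. Counts scaled to library size with TMM factors (CPM) were used to compare libraries, and 1 CPM stood for 31.9 to 50.9 reads. Marker genes fixed for fibroblasts were measured in 14 of 14 cases and summed to between 27562 and 37924 CPM per library. Of 6 neutrophil markers none passed the filter on low counts, S100a9, Csf3r and Mpo were at 0 in every library, and the sum reached at most 0.106 CPM. Of 9 macrophage markers 4 were measured and Adgre1 and Fcgr1 were at 0 throughout, with sums of 8.97 to 15.02 CPM in siControl, 13.5 to 16.0 in siControl with IL-17, 8.57 to 10.4 in siIMP2 and 9.51 to 12.2 in siIMP2 with IL-17. These macrophage sums overlapped between states under each siRNA, and between the siRNAs without IL-17. With IL-17 the siIMP2 sums lay below those of siControl. What part the macrophage sums had in the results was not tested.

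On a scale that takes gene length into account, the deposited TPM (transcript abundance scaled to a fixed total), Cxcl12 had the highest median level over the 12 libraries, 182 TPM. Cxcl1 followed with 103, Cxcl16 with 9.94, Cxcl10 with 1.82, Cxcl2 with 0.159 and Cxcl5 with 0.116 TPM. The order was not the same in every group. Cxcl1 reached 625 ± 144 TPM (SD, n = 3) in siControl with IL-17, where Cxcl12 had 240 ± 195, and fell to 13.7 ± 2.35 TPM in siIMP2, where Cxcl12 had 287 ± 186. Ranges over libraries overlapped between Cxcl12 (122 to 578 TPM) and Cxcl1 (11.4 to 790), between Cxcl1 and Cxcl16 (2.52 to 18.8), and among Cxcl10 (0.658 to 2.34), Cxcl5 (0 to 2.27) and Cxcl2 (0 to 0.748), so the order of the lowest 3 is uncertain. In siControl with IL-17, Cxcl5 had 1.67 ± 0.530 TPM and Cxcl10 had 1.77 ± 0.141. The ranges of Cxcl16 and Cxcl10 did not overlap.

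**Figure D1:**
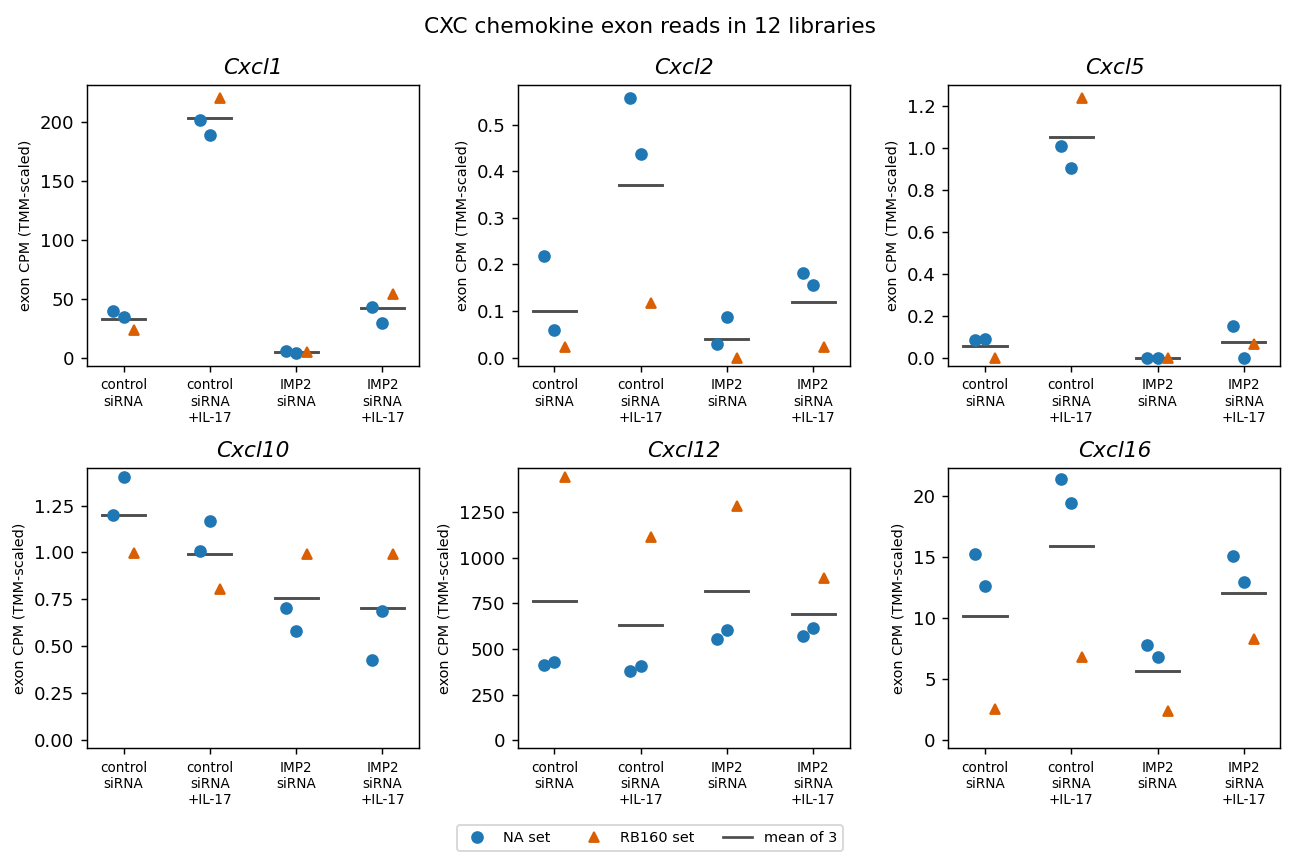
Exon reads of each CXC chemokine in the 12 libraries, as TMM-scaled CPM on a linear axis that differs between panels; circles are NA libraries, triangles RB160 libraries and lines the mean of 3. Cxcl1 separates all groups by IL-17 within each siRNA, Cxcl2 and Cxcl5 stay near 0 in most libraries, Cxcl12 is higher in every RB160 library than in any NA library, and Cxcl16 is lowest in the RB160 library of each group.

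Cxcl1 was the member that moved with both treatments in every library. In siControl it had 39.3, 34.1 and 23.5 CPM in replicates 1, 2 and 3, a mean of 32.3 ± 8.08 (SD, n = 3). With IL-17 these cells had 201, 189 and 220 CPM, a mean of 203 ± 15.9. In siIMP2 the level was 5.23, 4.20 and 4.80 CPM, a mean of 4.74 ± 0.520, and with IL-17 it was 43.0, 29.0 and 53.9 CPM, a mean of 42.0 ± 12.47. Every library with IL-17 was above every library without it under the same siRNA, and every siIMP2 library was below every siControl library in the same state. The siIMP2 libraries with IL-17 (29.0 to 53.9 CPM) overlapped the siControl libraries without it (23.5 to 39.3 CPM). In exon counts the range ran from 144 in siIMP2 replicate 2 to 11200 in siControl with IL-17 replicate 3. Less RNA per cell and fewer cells of a kind cannot be told apart in such bulk libraries.

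Fold changes were estimated with edgeR's quasi-likelihood test on the exon counts of all 12 libraries, with the title set as a term, and p-values were adjusted over the 13702 genes that passed the filter. A gene was called at an adjusted p under 0.05. With control siRNA, IL-17 raised Cxcl1 by 2.65 ± 0.20 (SE) on the log2 scale, or 6.28-fold (adjusted p = 6.17e-05). With IMP2 siRNA the rise was 3.15 ± 0.24, or 8.85-fold (adjusted p = 5.20e-05). IMP2 siRNA brought Cxcl1 to 0.147 of its control level without IL-17, a log2 change of -2.77 ± 0.24 (adjusted p = 4.15e-06). With IL-17 it brought Cxcl1 to 0.207 of the control level, a log2 change of -2.27 ± 0.20 (adjusted p = 4.94e-06). All 4 calls held in 12 of 12 fits that left out a library and in 9 of 9 fits with another filter, scaling, test or set of libraries. The difference between the IL-17 responses under the siRNAs was 0.50 ± 0.31, with a 95% interval from -0.17 to 1.16, and did not pass (adjusted p = 1.00).

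Within the sets the Cxcl1 changes had one direction. As differences of log2 CPM (prior count 2), the IL-17 response with control siRNA was 2.41 in the NA set and 3.23 in the RB160 set, and with IMP2 siRNA it was 2.90 and 3.48. The IMP2 siRNA effect was -2.95 and -2.28 without IL-17, and -2.46 and -2.03 with it. A fit with separate group levels in each set put the IL-17 response 0.69 ± 0.20 higher in the RB160 set (adjusted p = 0.296) and the IMP2 siRNA effect 0.54 ± 0.20 higher, that is nearer 0 (adjusted p = 0.155). The second difference passed when replicate 1 of siIMP2 with IL-17 was left out (0.68, adjusted p = 0.0209). With no filter beyond 1 count both differences passed in edgeR (0.69 ± 0.11 and 0.53 ± 0.11). The estimates hardly moved there and the SE became smaller. The RB160 set has 1 library a group, so set differences of all members take their spread from the NA libraries.

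**Figure D2:**
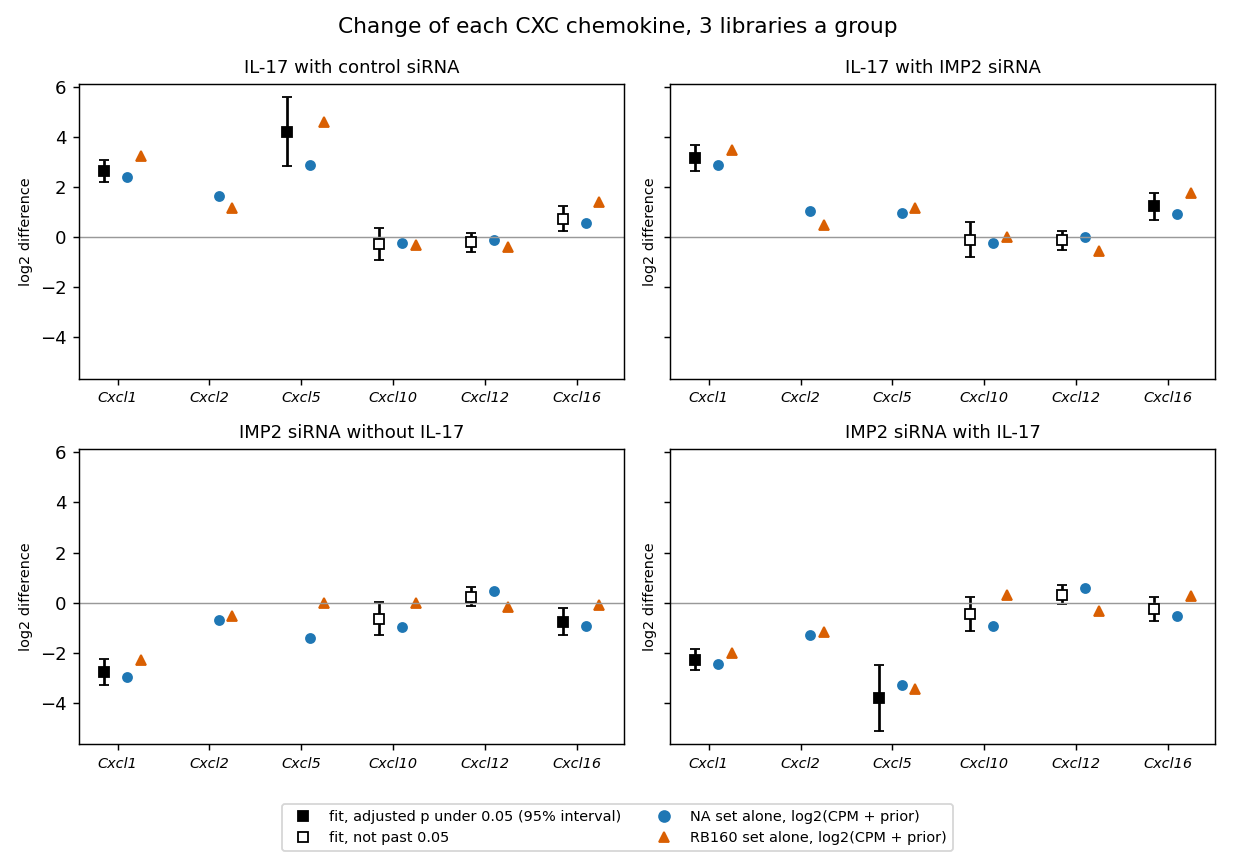
Log2 differences of the members in the 4 comparisons; squares are edgeR estimates with 95% intervals (filled where the adjusted p is under 0.05), circles and triangles the differences of log2 CPM within the NA and RB160 sets. Cxcl1 lies at 2.65 and 3.15 with IL-17 and at -2.77 and -2.27 with IMP2 siRNA, and no square stands where a member was not tested or a group had 0 counts.

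Cxcl5 was close to 0 except in siControl with IL-17. In siControl it had 3, 3 and 0 exon counts, in siControl with IL-17 it had 38, 31 and 63, in siIMP2 it had 0, 0 and 0, and in siIMP2 with IL-17 it had 5, 0 and 3. All 3 siControl libraries with IL-17 were above all other libraries, and 5 of the 12 libraries were at 0. In CPM the mean of siControl with IL-17 was 1.05 ± 0.171 (SD, n = 3), against 0.0572 ± 0.0497 without IL-17 and 0.0727 ± 0.0762 in siIMP2 with IL-17. The gene passed the filter on low counts only through the group in which it is high, so it entered the test by the same difference and its p-values are no independent support. With control siRNA the log2 change with IL-17 was 4.22 ± 0.62 (adjusted p = 0.0205), and with IL-17 present IMP2 siRNA brought Cxcl5 to 0.0715 of the control level, a change of -3.81 ± 0.59 on that scale (adjusted p = 6.59e-04). The first call was lost without siControl replicate 2 or 3 or without any 1 of the 3 siControl libraries with IL-17 (adjusted p from 0.0675 to 0.138), and in the NA libraries alone (3.43, adjusted p = 0.0586). The second held in 12 of 12 fits that left out a library. With no title-set term both calls were lost, and the second then gave -3.795 ± 0.90 (edgeR adjusted p = 0.0780). With no filter beyond 1 count, where 20274 genes were tested, the changes were 4.21 ± 0.59 (adjusted p = 1.09e-04) and -3.80 ± 0.56 (adjusted p = 6.84e-06).

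The siIMP2 libraries held 0 Cxcl5 counts in 114361049 exon reads, which allows up to 0.0262 CPM taking 3 counts over the group as the floor. Taken at that floor, siIMP2 lay 2.73-fold below siIMP2 with IL-17 (8 counts) and 2.10-fold below siControl (6 counts). These ratios treat the 8 and 6 counts as exact and leave out the spread between libraries, so they are not lower limits. No fitted change is given for contrasts that contain siIMP2 without IL-17.

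Cxcl2 had even fewer reads and did not pass the filter. Its exon counts were 8, 2 and 1 in siControl, 21, 15 and 6 in siControl with IL-17, 1, 3 and 0 in siIMP2, and 6, 5 and 1 in siIMP2 with IL-17. The 2 highest values belonged to the NA libraries of siControl with IL-17, and 10 of the 12 libraries held fewer than 10 counts. Summed over libraries and scaled to the summed exon reads, Cxcl2 was 3.55 times as high in siControl with IL-17 (42 counts) as in siControl (11 counts), with no test in the full set. Among the NA libraries alone Cxcl2 passed the filter, through the same siControl libraries with IL-17 that the test then compares, so its p-values are no independent support. There IMP2 siRNA with IL-17 gave -1.54 ± 0.54 on the log2 scale (adjusted p = 0.0489 over 13476 genes). IL-17 with control siRNA gave 1.79 ± 0.55 (adjusted p = 0.403). Cxcl1 and Cxcl2 share the promoter string and the doubled pentamers printed above, while their median levels were 103 and 0.159 TPM.

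Cxcl10 was present at a low level. It had 44, 47 and 42 exon counts in siControl, 38, 40 and 41 with IL-17, 24, 20 and 42 in siIMP2, and 14, 22 and 45 in siIMP2 with IL-17. The RB160 libraries held 41 to 45 counts in all 4 groups. Counts of siControl (42 to 47) lay above those of siControl with IL-17 (38 to 41), while their CPM overlapped (0.999 to 1.40 and 0.806 to 1.17). Counts of siIMP2 with and without IL-17 overlapped. In CPM the siControl libraries (0.999 to 1.40) all lay above the siIMP2 libraries (0.583 to 0.993), with the RB160 libraries of both groups nearly level, and with IL-17 the siRNA groups overlapped. The IL-17 changes on the log2 scale were -0.28 ± 0.29 with control siRNA (adjusted p = 0.780) and -0.10 ± 0.32 with IMP2 siRNA (adjusted p = 1.00). The IMP2 siRNA changes were -0.65 ± 0.30 without IL-17 (95% interval -1.31 to 0.01, adjusted p = 0.120) and -0.47 ± 0.31 with IL-17 (adjusted p = 0.274). In the NA libraries alone they were -1.02 ± 0.29 (adjusted p = 0.0214) and -0.97 ± 0.31 (adjusted p = 0.0346), and both passed there. The IMP2 siRNA effect differed between the sets by 1.13 ± 0.35 (RB160 minus NA, adjusted p = 0.0912). This difference passed in edgeR with no filter beyond 1 count (adjusted p = 0.0400). Of the reads of the Cxcl10 gene, 66.1% were not counted as unique, from 40.9% to 92.9% by library, so these counts are uncertain. No such reads were found for Cxcl1, Cxcl2, Cxcl5 and Cxcl12, where unique and total gene reads were equal, and 5.12% were not unique for Cxcl16.

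Cxcl12 was abundant in all groups, and its level followed the title set. In siControl it had 414, 426 and 1440 CPM, in siControl with IL-17 it had 377, 406 and 1112, in siIMP2 it had 556, 605 and 1283, and in siIMP2 with IL-17 it had 571, 612 and 887. The RB160 library, given last, was the highest of its group each time. The set term put Cxcl12 1.28 ± 0.13 higher on the log2 scale in the RB160 set, or 2.42-fold (adjusted p = 1.31e-06). IL-17 gave -0.21 ± 0.17 with control siRNA (95% interval -0.58 to 0.17, adjusted p = 0.709) and -0.13 ± 0.17 with IMP2 siRNA (-0.50 to 0.25, adjusted p = 0.996). IMP2 siRNA gave 0.24 ± 0.17 without IL-17 (-0.14 to 0.61, adjusted p = 0.326) and 0.32 ± 0.17 with it (-0.06 to 0.69, adjusted p = 0.184).

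The IMP2 siRNA effect on Cxcl12 differed between the sets. In the NA set all siIMP2 libraries were above all siControl libraries in the same state, and the differences of log2 CPM were 0.47 without IL-17 and 0.60 with it. In the RB160 set, with 1 library a group and so no test against 0, they were -0.17 and -0.33. The difference between the sets was -0.78 ± 0.09 (RB160 minus NA, adjusted p = 6.08e-04, with the spread taken from the NA libraries), and that call held in 8 of 8 fits that left out an NA library. In the NA libraries alone Cxcl12 rose with IMP2 siRNA in both states, by 0.46 ± 0.07 (adjusted p = 4.75e-04) and 0.59 ± 0.07 (adjusted p = 8.49e-05). The pooled test also passed without replicate 3 of siControl in the unstimulated comparison (0.48, adjusted p = 0.0358), and without replicate 3 of siIMP2 with IL-17 in the stimulated one (0.59, adjusted p = 0.00232). The set difference in the IL-17 response of Cxcl12 was -0.42 ± 0.09 (RB160 minus NA, edgeR adjusted p = 0.104). That difference passed by DESeq2 (adjusted p = 0.00161) and by edgeR with no filter beyond 1 count (adjusted p = 0.00101).

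Cxcl16 was lower in the RB160 set and rose with IL-17 in each set. In siControl it had 15.3, 12.7 and 2.55 CPM, in siControl with IL-17 it had 21.4, 19.4 and 6.86, in siIMP2 it had 7.78, 6.85 and 2.39, and in siIMP2 with IL-17 it had 15.1, 13.0 and 8.26. The RB160 library was the lowest of its group each time, and within each set every IL-17 library was above the unstimulated libraries with the same siRNA. The set term was -1.52 ± 0.19, which puts the RB160 level at 0.348 of the NA level (adjusted p = 1.01e-05). IL-17 gave 0.74 ± 0.23 with control siRNA (adjusted p = 0.235) and 1.23 ± 0.24 with IMP2 siRNA, or 2.35-fold (adjusted p = 0.0467). The second call was lost in 9 of 12 fits that left out a library (adjusted p from 0.0585 to 0.228), namely without siControl replicate 2, any siControl library with IL-17, any siIMP2 library, or replicate 1 or 3 of siIMP2 with IL-17. That second call was also lost by limma-voom (1.12, adjusted p = 0.0595) and with no title-set term. The first passed without replicate 3 of siIMP2 with IL-17 (0.76, adjusted p = 0.0411) and with no filter beyond 1 count (0.74, adjusted p = 0.0233). The difference of the responses under the siRNAs was 0.50 ± 0.33 (95% interval -0.22 to 1.21, adjusted p = 1.00).

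In unstimulated cells IMP2 siRNA brought Cxcl16 to 0.594 of the control level, a log2 change of -0.75 ± 0.25 (adjusted p = 0.0321). With IL-17 the change was -0.26 ± 0.23 (adjusted p = 0.413). Here too the sets differed: the unstimulated difference of log2 CPM was -0.93 in the NA set and -0.09 in the RB160 set, and the stimulated one -0.54 and 0.27. The difference in the IMP2 siRNA effect was 0.83 ± 0.18 (RB160 minus NA, adjusted p = 0.0207). It did not pass without siControl with IL-17 replicate 1, siIMP2 replicate 2 or siIMP2 with IL-17 replicate 2 (adjusted p from 0.0504 to 0.0518). The IL-17 response of Cxcl16 was 0.87 ± 0.17 higher in the RB160 set (adjusted p = 0.0880). This difference passed without siControl replicate 2 (0.94, adjusted p = 0.0448) and with no filter beyond 1 count (adjusted p = 3.97e-05). The unstimulated IMP2 siRNA call was lost without siControl replicate 1 or 2 or any 1 of the 3 siIMP2 libraries (adjusted p from 0.0614 to 0.151). It was lost as well by DESeq2 (-0.72, adjusted p = 0.0616) and by edgeR with no title-set term (-0.84, adjusted p = 0.616). With IL-17, the change passed without replicate 3 of siIMP2 with IL-17 (-0.63, adjusted p = 0.0167) and in the NA libraries alone (-0.55 ± 0.12, adjusted p = 0.00476).

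**Figure D3:**
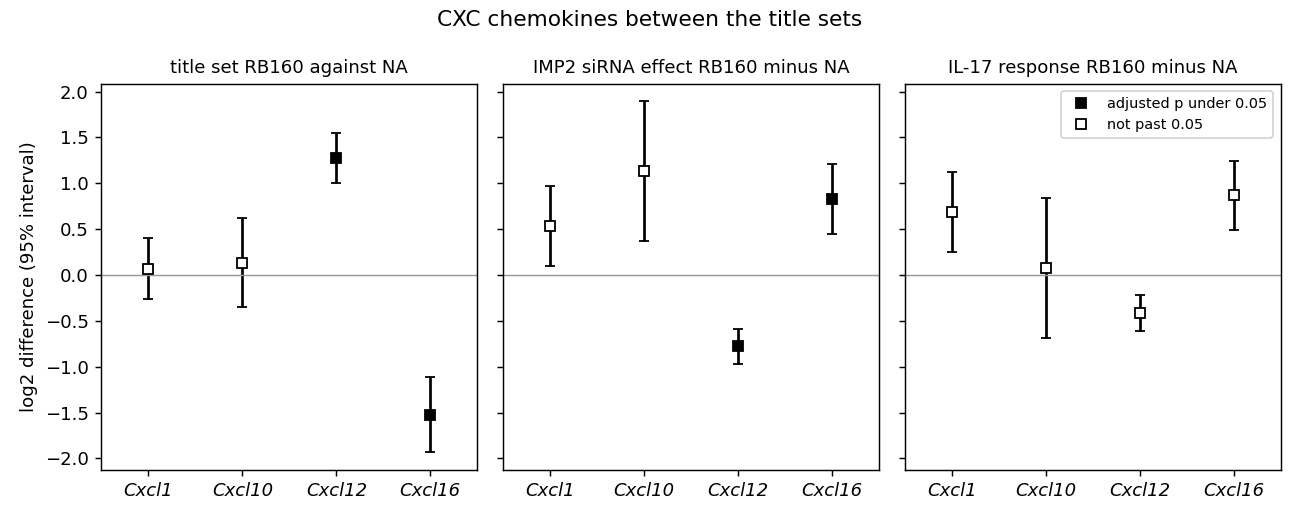
Log2 differences (RB160 minus NA, with 95% intervals) in level, IMP2 siRNA effect and IL-17 response for the 4 members that passed the filter and had counts in every group. Filled squares have an adjusted p under 0.05. Cxcl12 is higher and Cxcl16 lower in the RB160 set (1.28 and -1.52), and their IMP2 siRNA effects differ between the sets in opposite directions (-0.78 and 0.83).

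Counted over the members, IL-17 with control siRNA gave 2 higher (Cxcl1, and Cxcl5, which was tested only because it is high there) of the 5 tested, where 0.255% of all tested genes were called higher. With IMP2 siRNA it gave 2 higher (Cxcl1, Cxcl16), with 0.343% of all genes called higher. IMP2 siRNA gave 2 lower without IL-17 (Cxcl1, Cxcl16), where 16.7% of all genes were called lower, and 2 lower with it (Cxcl1, and Cxcl5 with the same limit), where 16.7% were as well. Without Cxcl5 the counts are 1 for IL-17 with control siRNA and 1 for IMP2 siRNA with IL-17, both Cxcl1. Against so wide a background a count of 2 says little about the members. The test of a difference between the IL-17 responses called none of the members and 0% of all genes by edgeR, with 152 genes at an unadjusted p under 0.05, and 0 genes by DESeq2 or limma-voom. Between the title sets 2 members were called (Cxcl12, Cxcl16), with 69.5% of all genes called in either direction. For the IMP2 siRNA effect in the RB160 set minus that in the NA set 2 were called (Cxcl12, Cxcl16), with 4.98% of all genes, and for the IL-17 response none was, with 0.190% of all genes.

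In the authors' deposited table, whose control is named mock, the log2 fold changes of Cxcl1 were 2.66 and 3.15 for IL-17 with control and IMP2 siRNA, and -2.76 and -2.27 for IMP2 siRNA without and with IL-17, each with an adjusted p listed at 0. In the authors' deposited table Cxcl5 had 4.25 for IL-17 with control siRNA (adjusted p = 0.00222) and -3.82 for IMP2 siRNA with IL-17 (adjusted p = 0.000937). Cxcl16 had 1.10 for IL-17 with IMP2 siRNA and -0.83 for IMP2 siRNA without IL-17 in the authors' deposited table, where both adjusted p-values are 1.00. A fit here with no term for the title set likewise gave 1.09 (adjusted p = 1.00) and -0.84 (adjusted p = 0.616) for these values of Cxcl16.

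Reads that fall in a gene but outside its exons were taken as the total reads of the gene minus its exon reads. They can come from introns of unspliced RNA, and the files do not say where in the gene they lie. Cxcl1 is 1875 bp long with 953 bp of exons, and 8.32% of its gene reads lay outside them, against 1.24% for Cxcl12 and 3.71% for Cxcl16 when libraries are pooled. By library the Cxcl16 share was 1.40% to 3.73% in the NA set and 5.79% to 13.0% in the RB160 set, and that of Cxcl1 4.39% to 17.2% and 9.96% to 21.6%, so the ranges of these genes overlapped in the RB160 set and not in the NA set. Cxcl2, Cxcl5 and Cxcl10 had 8, 2 and 6 such reads over all libraries, too few to test.

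The Cxcl1 reads outside exons were 155, 129 and 208 in siControl, 379, 363 and 1373 in siControl with IL-17, 12, 30 and 56 in siIMP2, and 65, 54 and 270 in siIMP2 with IL-17. They rose with IL-17 and fell with IMP2 siRNA in each set. In a fit of reads outside exons over 12463 genes, the log2 change with IL-17 was 1.58 ± 0.15 with control siRNA (adjusted p = 1.92e-06) and 1.78 ± 0.22 with IMP2 siRNA (adjusted p = 3.79e-04). With IMP2 siRNA it was -2.53 ± 0.21 without IL-17 (adjusted p = 8.34e-09) and -2.33 ± 0.16 with it (adjusted p = 2.29e-10). Cxcl1 was the member called, 1 of 3 tested each time, with 0.152% and 0.0963% of all tested genes called higher with IL-17 and 4.89% and 4.67% called lower with IMP2 siRNA. Cxcl12 and Cxcl16 did not pass in any of them, with estimates from -0.25 to 0.13 for Cxcl12 and from -0.53 to 0.93 for Cxcl16. Cxcl16 had only 6 to 23 reads outside exons per library, against 146 to 825 for Cxcl12. The SE of Cxcl16 ran from 0.33 to 0.39, so a change outside its exons could have been missed.

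As a share of the gene's reads, Cxcl1 reads outside exons made up 9.71%, 10.2% and 17.4% in siControl, and 4.77%, 5.32% and 10.9% in siControl with IL-17. They made up 6.28%, 17.2% and 21.6% in siIMP2, and 4.39%, 5.51% and 9.96% in siIMP2 with IL-17. Within each set every IL-17 library had a lower share than the unstimulated libraries with the same siRNA, and across sets the groups overlapped. Over all genes the share was 4.49% to 5.09% in NA libraries and 4.94% to 6.42% in RB160 libraries, with both RB160 libraries that received IL-17 at the upper end.

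A joint fit of both kinds of reads tested whether they changed by different amounts. Averaged over the siRNAs, the IL-17 change of Cxcl1 outside exons was lower than that of its exon reads. The log2 difference was -1.28 ± 0.12 (95% interval -1.52 to -1.05, joint-fit adjusted p = 2.35e-23 over 17256 genes), where 0.0464% of all genes were called lower. The joint fit took its spread almost wholly from a value pooled over genes. Its intervals and p-values therefore do not measure the spread of Cxcl1 between the 12 libraries. In an exact two-sided permutation test within set and siRNA, chosen after seeing the data, the log2 ratio of the reads differed by -1.11 with IL-17, lower in 4 of 4 strata (p = 0.0139, the smallest that the 144 arrangements can give). For IMP2 siRNA the joint fit gave 0.04 ± 0.11 (95% interval -0.18 to 0.26, adjusted p = 1.00), where 5.92% of all genes were called, and the exact permutation test gave 0.08, lower in 2 of 4 strata (p = 0.833). For Cxcl12 the differences were 0.01 ± 0.08 with IL-17 and -0.14 ± 0.08 with IMP2 siRNA, and for Cxcl16 they were -0.41 ± 0.25 and 0.24 ± 0.25, none past the threshold. Exon reads of Cxcl1 thus rose more than its other reads with IL-17, while with IMP2 siRNA both kinds fell by amounts whose difference had an interval around 0.

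**Figure D4:**
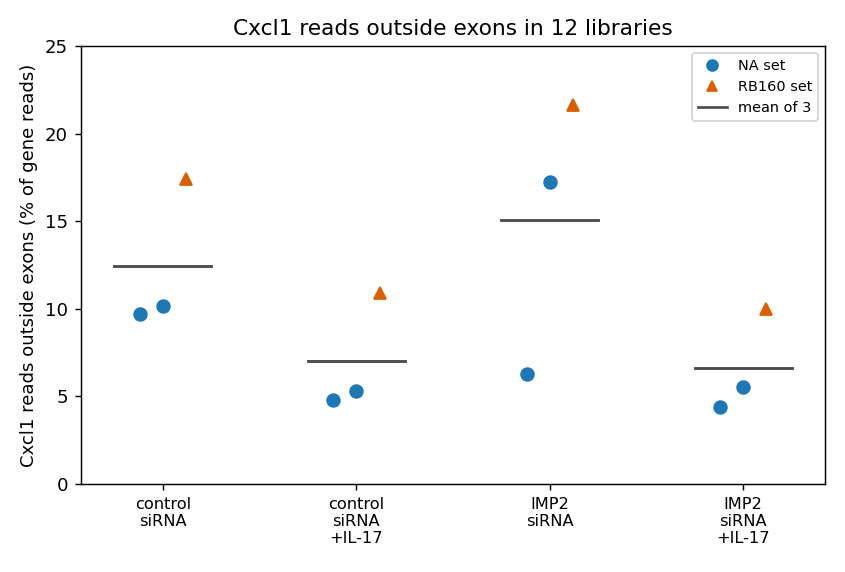
Share of Cxcl1 gene reads that lie outside exons, in percent, in each of the 12 libraries; circles are NA libraries, triangles RB160 libraries and lines the mean of 3. Within each set the libraries with IL-17 lie below those without it under the same siRNA, from 4.39% to 10.9% with IL-17 and from 6.28% to 21.6% without.

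Other CXC ligands were mostly silent, and 2 of 9 were measured. Both were called lower with IMP2 siRNA in both states, where 16.7% of all genes were called lower in each. Ppbp, a neighbour of Cxcl1 and Cxcl5 and known from platelets, had a mean of 5.86 CPM in siControl, 8.37 with IL-17, 0.467 in siIMP2 and 0.695 in siIMP2 with IL-17, and fell, with log2 changes of -3.46 ± 0.41 and -3.36 ± 0.38 (adjusted p = 4.68e-05 and 3.17e-05). Cxcl14, a ligand made by epithelia and fibroblasts, fell likewise, by log2 changes of -1.92 ± 0.32 and -1.99 ± 0.32 (adjusted p = 5.66e-04 and 4.81e-04). The change with IL-17 did not pass for either. Cxcl3, which lies in the cluster with Cxcl1 and Cxcl2, had 5 counts over all libraries, and Cxcl9, which is coded beside Cxcl10, had 3.

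Receptors for the members were few. Of 8 genes only Ackr3, the scavenging receptor of Cxcl12, and Cxcr6, the receptor of Cxcl16, were measured, and Cxcr2 and Cxcr4 had 10 and 17 counts over all libraries. Ackr3 fell with IMP2 siRNA in the presence of IL-17 (-0.60 ± 0.21, adjusted p = 0.0414), its change without IL-17 was -0.61 ± 0.23 (adjusted p = 0.0579), and it was 3.15 ± 0.15 higher in the RB160 set (adjusted p = 1.69e-09). Cxcr6 changed by -0.77 ± 0.35 and -0.66 ± 0.37 with IMP2 siRNA (adjusted p = 0.107 and 0.192).

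Of 12 proteases that cut CXC chemokines 7 were measured. None was called with IL-17 under either siRNA, where 0.255% and 0.343% of all genes were called higher. With IMP2 siRNA 2 fell and 1 rose in both states, where 32.9% and 33.4% of all genes were called in either direction without and with IL-17, a share close to theirs. Mmp9, which trims neutrophil-attracting ligands, fell with log2 changes of -3.08 ± 0.18 and -2.52 ± 0.16 (adjusted p = 3.27e-07 and 4.75e-07). For Adam17, a sheddase of membrane proteins, they were -0.57 ± 0.06 and -0.62 ± 0.06. Mmp14, a membrane-bound metalloproteinase, rose by 0.35 ± 0.07 and 0.40 ± 0.07. Adam10, the sheddase of Cxcl16, gave -0.10 ± 0.06 with IL-17 present (adjusted p = 0.213). Of 11 proteoglycans that hold chemokines at the cell surface and in matrix, 10 were measured, and IMP2 siRNA raised 3 and lowered 4 without IL-17 and raised 4 and lowered 5 with it, beside the same 32.9% and 33.4% of all genes called. Vcan was among those that fell (-1.11 ± 0.15 and -1.21 ± 0.15) and Gpc4 among those that rose (0.58 ± 0.08 and 0.56 ± 0.08).

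All 26 listed regulators of CXC gene transcription and mRNA decay were measured. IL-17 raised 4 of them with control siRNA and 5 with IMP2 siRNA, and lowered none, where 0.255% and 0.343% of all genes were called higher. The 4 were Nfkbiz, a nuclear co-activator of NF-kB (2.05 ± 0.12, adjusted p = 4.35e-06), Zc3h12a (1.97 ± 0.20, adjusted p = 7.37e-04), Bcl3 (0.87 ± 0.15, adjusted p = 0.0238) and the NF-kB inhibitor Nfkbia (0.55 ± 0.05, adjusted p = 7.03e-04). With IMP2 siRNA the C/EBP factor Cebpd was called as well (1.38 ± 0.26, adjusted p = 0.0381). IMP2 siRNA raised 3 and lowered 14 of the 26 in each state, where 16.7% of all genes were called lower in each and 32.9% and 33.4% in either direction. The list had medians of -0.23 without IL-17 and -0.32 with it, where the medians over all genes were -3.56e-04 and -0.01. Those that fell included Bcl3 (-1.43 ± 0.16 and -1.20 ± 0.15), Cebpd (-1.50 ± 0.26 and -1.31 ± 0.25) and Irf1 (-0.76 ± 0.06 and -0.68 ± 0.06), and the decay factors Zfp36l1 (-0.66 ± 0.08 and -0.53 ± 0.08) and Zfp36l2 (-0.33 ± 0.07 and -0.38 ± 0.07). Tnfaip3, which restrains NF-kB signalling, rose (0.86 ± 0.10 and 0.96 ± 0.10). None of the 26 was called for a difference between the IL-17 responses.

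Patterns of the members across the 12 libraries were compared after each set was centred, as Pearson correlations of log2 CPM that share libraries and groups and carry no test. Cxcl1 was nearest to Slc7a2 (r = 0.99), Mkx, Pgd, Ptch1 and Ccl2 (0.98 each) among 10600 genes, and Ccl2 is a CC chemokine that draws monocytes. Cxcl16 was nearest to Fgf7 and Syt7 (0.98), Tbx3 (0.97), Ifngr2 and Lif (0.96). Cxcl5 was nearest to Taf1a (0.95), Nfe2l2 and Il6 (0.94), Zfp263 and Mt1 (0.93), though most of its libraries are near 0. Cxcl12 was nearest to Tmem141 and Smarcd3 (0.95), and then to Naglu, Csrp2 and Svil (0.94), while Cxcl10 was nearest to Luzp1 (0.96), and also near Sumo3 (0.94), Tle1 (0.93) and Sgsm2 (0.92). Between members, Cxcl1 had r = 0.89 with both Cxcl5 and Cxcl16, and Cxcl12 had negative values with all others, from -0.78 with Cxcl16 to -0.64 with Cxcl5.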

How the data were processed

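Gene tables of 12 RNA-seq libraries were used. Deposited per gene are un-normalised whole counts (exon reads, unique gene reads and total gene reads), and the deposited TPM values are levels per gene length made by the authors, per the file headers. The deposited log2 fold changes and adjusted p-values are the authors' own. The submitters' processing notes name mm10. The aligner, the counter and whether strand was used: not given in the sources used here.

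Exon counts of all libraries entered edgeR 4.0.16 (R 4.3.3) with TMM factors and the quasi-likelihood test. Genes were kept by filterByExpr (count 10, total 15), terms were group and title set, and p-values were adjusted by Benjamini-Hochberg. Differences between sets used 8 group-by-set levels, with 4 residual degrees of freedom. Reads outside exons were fitted likewise, and jointly with exon reads with a term per library. The procedure was tested on simulated counts. Genes named were the members, up to 4 measured genes of smallest p per list and the called ones (some given only as counts), and the 5 genes of highest correlation per member with a mean log2 CPM of at least 1 (1 of them is not reported here). The members, lists and tests were chosen with earlier results of these data known. Alternatives were RLE factors, DESeq2 1.42.0, limma-voom (limma 3.58.1), a looser filter of 1 count, a stricter one of 1 CPM in 3 libraries, a fit without the title set, NA libraries alone, only the groups compared and each library left out. Unique gene reads, the RB160 libraries alone and the exact permutation test (ratio pseudocount 0.5) were added after seeing the data.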

Additional observations from a re-analysis of the deposited data

Results flagged for a closer look

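The IMP2 siRNA effect on Cxcl12 differed between the title sets by a test of the difference itself, by -0.78 ± 0.09 on the log2 scale (RB160 minus NA, edgeR adjusted p = 6.08e-04). That on Cxcl16 differed by 0.83 ± 0.18 (edgeR adjusted p = 0.0207). The RB160 set has 1 library in each group, so its own spread was not measured, and the title sets cannot be told apart from whatever else the libraries of a set share.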

How the results depend on the processing

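The number of called members was 2 in each of the IL-17, IMP2 siRNA and title-set comparisons and in the set difference of the IMP2 siRNA effect, and 0 for the set difference of the IL-17 response. With no title-set term it was 1 for both IL-17 and both IMP2 siRNA comparisons. In the NA libraries alone it was 1 for IL-17 with control siRNA, 4 for IMP2 siRNA without IL-17 and 6 with it. Over all genes 40, 4095 and 4159 of 13476 were called there. Under IMP2 siRNA Cxcl12 was called higher and the other called members lower. Cxcl2 and Cxcl5 passed that filter only through siControl with IL-17. The 1 CPM filter gave 1 for IL-17 with control siRNA and 1 for IMP2 siRNA with IL-17, since Cxcl5 was then not tested. DESeq2 gave 1 for IMP2 siRNA without IL-17 and 1 for the set difference of the IL-17 response, limma-voom gave 1 for IL-17 with IMP2 siRNA, and no filter gave 3 and 4 for the set differences of the IL-17 response and the IMP2 siRNA effect. Leaving out 1 library gave 1 to 3 for IL-17 with control siRNA and 1 to 2 for IL-17 with IMP2 siRNA. For IMP2 siRNA it gave 1 to 4 without IL-17 and 2 to 5 with it, and for the title set 2 to 4. Over all genes the same fits called 9 to 98 and 13 to 117 for IL-17. They called 3222 to 4690 and 3357 to 4804 for IMP2 siRNA, and 8874 to 9602 for the title set. Under IMP2 siRNA the member counts mix Cxcl12, higher where called, with members called lower. Cxcl5 passed the filter in these fits only through siControl with IL-17. Calls of the set differences that changed with 1 library left out are given above by gene. Without an RB160 library the set differences could not be fitted.

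Values that changed sign had intervals around 0 in the full fit. Cxcl10 with unique gene reads gave 0.18 and 0.0026 for IL-17 with control and IMP2 siRNA, -0.17 for the difference of the responses and -0.16 for the title set, and Cxcl12 in the NA libraries gave 0.029 for IL-17 with IMP2 siRNA. With 1 library left out, Cxcl12 ran from -0.32 to 0.050 and from -0.27 to 0.13 for IL-17 with control and IMP2 siRNA and from -0.19 to 0.33 for their difference. Outside exons it ran from -0.42 to 0.10 and -0.36 to 0.20 with IL-17 and from -0.15 to 0.35 and -0.081 to 0.48 with IMP2 siRNA, and from -0.041 to 0.053 for the outside-minus-exon IL-17 effect. Cxcl10 ran from -0.50 to 0.17 for IL-17 with IMP2 siRNA, from -0.22 to 0.45 for the difference of the responses, from -0.083 to 0.33 for the title set and from -0.070 to 0.28 for the set difference of the IL-17 response. Cxcl1 ran from -0.14 to 0.31 for the title set and from -0.071 to 0.16 for the outside-minus-exon IMP2 siRNA effect, and Cxcl16 from -0.10 to 0.19 outside exons with IMP2 siRNA and IL-17. The cause was not tested.

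No paired analysis was possible because the labels give the groups no shared replicate numbers. The planned count of uniquely mapped exon reads was not run, since the files used hold unique reads per gene only. Over all genes, the calls of IL-17 with control siRNA were 58, with 221 at no filter, 197 by DESeq2, 100 with only the groups compared and 1 with no title-set term. Those of IL-17 with IMP2 siRNA were 70, with 179, 170, 349 and 2 under the same settings, and those of IMP2 siRNA fell from 4505 and 4581 to 321 and 327 with no title-set term. In the NA libraries alone IL-17 with IMP2 siRNA gave 46, and with 1 library left out the IL-17 comparisons gave 9 to 98 and 13 to 117. The set difference of the IL-17 response had 26 calls (255 at no filter, 61 by DESeq2, 14 by limma-voom), that of the IMP2 siRNA effect 683 (1287 at no filter), and reads outside exons with IL-17 had 28 and 14 (119 and 94 at no filter, 2 to 52 and 3 to 35 with 1 library left out). Depth limits Cxcl2, Cxcl5 and Cxcl10, whose counts stay under 64 in every library.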
